A study of Mus musculus with 6 samples.

Results

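The endothelial junction genes Cldn5, Ocln, Tjp1, Cdh5, Esam, Jam2 and F11r, 7 in all, were compared in frontal cortex of 3 mice homozygous for GFAP-IL6 and 3 wild types (WT). These genes were given by name, and each matched 1 of the 33000 rows of the count table by its symbol. All 7 had enough counts to be tested, among 15341 genes tested. In GFAP-IL6 mice the cytokine IL6 is expressed as a transgene under the promoter of the astrocyte gene Gfap, so it is driven in astrocytes and not in the vessels. The labels give C57BL/6 as the strain of both groups, and all animals were 3 months old with no treatment named. TruSeq libraries, which sample mRNA along its full length, were prepared from whole dissected cortex, 1 library per mouse.

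Capillaries of the brain are lined by endothelial cells that are sealed to each other by tight junctions, the seal of the blood-brain barrier. Claudin-5 (Cldn5) and occludin (Ocln) span the membrane in this seal, and ZO-1 (Tjp1) anchors them to actin inside the cell. VE-cadherin (Cdh5) holds the neighbouring adherens junction together, while ESAM (Esam), JAM-B (Jam2) and JAM-A (F11r) are immunoglobulin-like adhesion molecules at the same contacts. Cdh5 and Cldn5 are largely endothelial in brain tissue. Tjp1 is also made by many other cell types, and F11r also by platelets, leukocytes and epithelia. In whole tissue, more endothelial cells and more RNA per endothelial cell cannot be told apart.

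Totals ran from 11591066 to 16877001 counts for the WT libraries and from 7559524 to 11072008 counts for those of GFAP-IL6. Every GFAP-IL6 library was shallower than every WT library (p = 0.1 in a two-sided exact permutation test, which cannot go lower with 3 against 3). As a check of the labels, the WT libraries held 0, 2 and 0 reads of Il6, against 12, 10 and 24 reads in the GFAP-IL6 libraries. Gfap rose (log2 fold change 2.84, SE 0.20, edgeR adjusted p 5.5e-06). Markers of choroid plexus, an epithelium with tight junctions of its own, had a summed level of 1323 TPM (transcript level scaled for gene length and library size) in WT replicate 3. The sum was between 7.03 and 123 TPM in the other 5 libraries. Fold changes of the junction genes are therefore also given without WT replicate 3.

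Expression of Cldn5, F11r and Esam rose in GFAP-IL6 cortex, to 1.90, 1.87 and 1.61 times the WT level. Cdh5 was estimated at 1.41 times the WT level but did not pass the test, and Ocln, Jam2 and Tjp1 were estimated at 1.17, 1.09 and 1.09 times. Of the 7 genes, 3 were called higher at an adjusted p under 0.05 by edgeR, against 2.65% of all genes tested. None was called lower by edgeR, DESeq2 or limma-voom, and 0 had a negative estimate or an unadjusted p under 0.05 in that direction by any of these tools. Lower calls were rare in the whole fit, with 32 of the 15341 genes tested by edgeR, while 7768 had a negative estimate. Calls in either direction made up 2.86% of all genes tested. The median log2 fold change was 0.50 over the 7 genes and -0.0038 over all genes tested. No junction gene passed the study’s fold threshold, an absolute log2 fold change over 1, by edgeR, DESeq2 or limma-voom. For 5 of the 7 genes every GFAP-IL6 library exceeded every WT library, as was the case for 13.8% of all genes tested. All were below for 0 of the 7, against 12.7% of all genes. Without WT replicate 3, the log2 fold changes of Cldn5, F11r and Esam were 0.98, 0.98 and 0.65 (edgeR adjusted p 0.00448, 0.0193 and 0.0436), and that of Cdh5 was 0.54 (edgeR adjusted p 0.168).

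**Figure D1:**
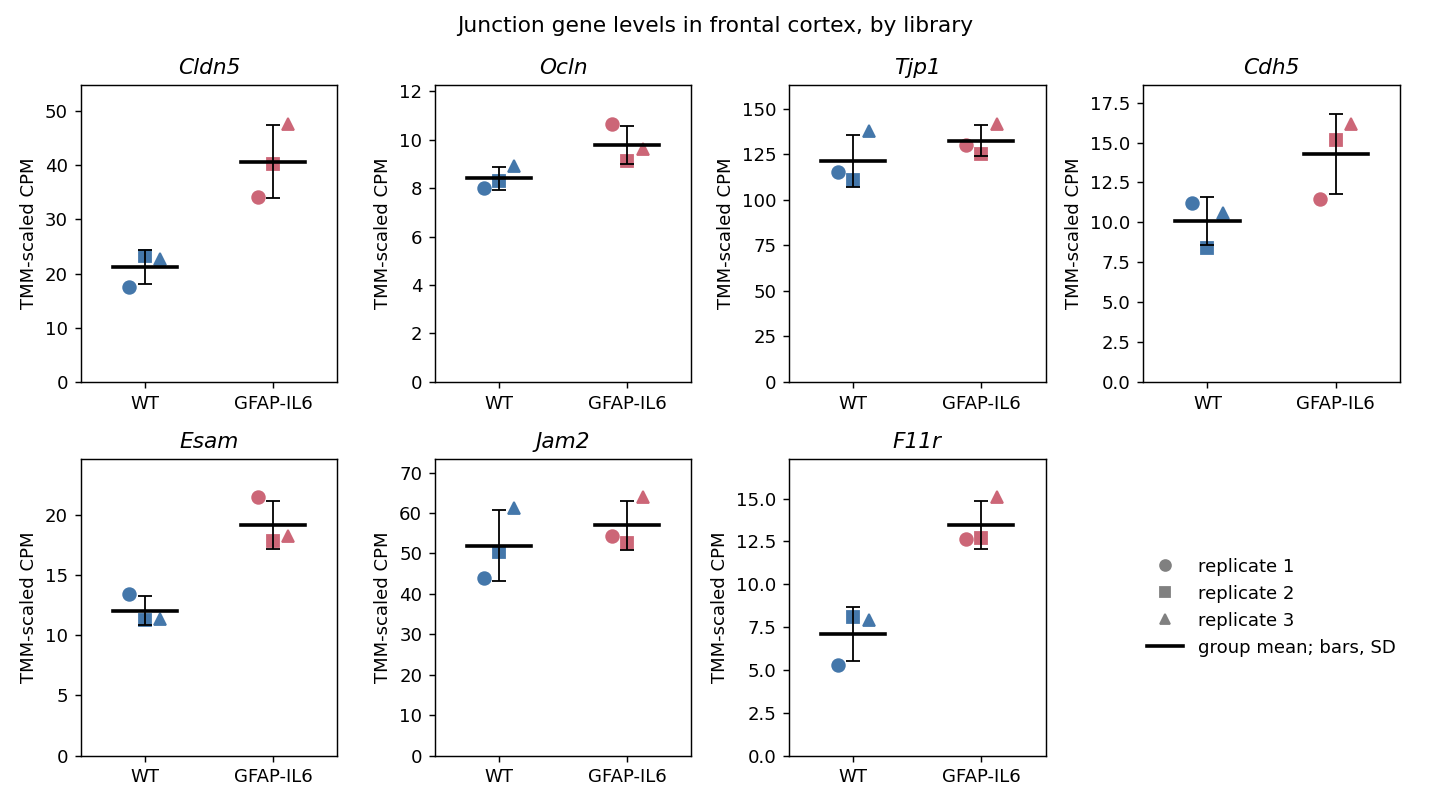
Level of each junction gene in every library, as CPM, counts scaled to library size with TMM factors, for WT (blue) and GFAP-IL6 (red), with marker shape giving the replicate. Thick lines are group means and thin bars the SD over 3 libraries; the groups are apart for Cldn5, Ocln, Cdh5, Esam and F11r and overlap for Tjp1 and Jam2.

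For Cldn5 and F11r, the junction genes with the largest fold changes, the 250 bases before the start site are shown beside those of Tjp1, which was not called. They are RefSeq sequences on GRCm38.p6, read 5′ to 3′ on the strand of the gene, at chr16:18776597-18776846 for Cldn5 (plus strand), chr1:171437311-171437560 for F11r (plus strand) and chr7:65371245-65371494 for Tjp1 (minus strand). Entries were found for 4 of the 7 genes, Cldn5, F11r, Ocln and Tjp1. The start of F11r used here lies just within the gene, which begins at 171437535. That of Tjp1 is an internal start, since the gene begins at 65527781 on the minus strand. The bases before that outer end of Tjp1 were not examined. Capitals mark the CCAAT box on either strand, CCAAT or ATTGG.
Cldn5: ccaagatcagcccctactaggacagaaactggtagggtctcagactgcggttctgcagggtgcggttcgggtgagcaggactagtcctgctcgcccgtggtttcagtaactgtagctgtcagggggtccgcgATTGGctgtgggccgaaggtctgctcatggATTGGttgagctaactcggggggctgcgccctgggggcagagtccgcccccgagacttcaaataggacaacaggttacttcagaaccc
F11r: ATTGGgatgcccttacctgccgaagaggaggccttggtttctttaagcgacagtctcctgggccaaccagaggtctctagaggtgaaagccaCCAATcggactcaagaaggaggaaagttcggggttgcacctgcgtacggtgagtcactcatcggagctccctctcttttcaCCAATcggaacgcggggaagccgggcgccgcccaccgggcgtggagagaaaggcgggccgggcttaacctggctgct
Tjp1: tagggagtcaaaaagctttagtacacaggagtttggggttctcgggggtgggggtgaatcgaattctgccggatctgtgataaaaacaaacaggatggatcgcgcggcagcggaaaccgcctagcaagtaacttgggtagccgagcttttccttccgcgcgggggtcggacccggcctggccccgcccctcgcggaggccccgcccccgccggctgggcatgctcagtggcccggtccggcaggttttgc

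The CCAAT box occurred 2 times before Cldn5, 3 times before F11r and 0 times before Tjp1, and 33.8% of the 32851 windows of this length in the table hold at least 1. In the table Ocln has 2 start sites, of which 1 has a single CCAAT box. Other motifs searched on both strands were TTCNNNGAA (a STAT site, 7.02% of windows), CCGGAA (an ETS site, 12%), CACGTG (an E-box, 6.02%), ACAAAG (a SOX site, 16.5%), TATAAA (12.4%) and GGGCGG (a GC box, 32.7%). Of these, the GC box was present in all 5 windows of the 4 genes and CCGGAA in 1 window of Ocln, and the rest were absent from these windows. These matches describe letters and not bound sites, and absence from 250 bases says nothing of the factor elsewhere. Ocln was not called and has a CCAAT box, while Esam was called and has no window. A relation between motifs and fold changes was not tested.

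Cldn5 is the main claudin of brain capillaries. It is a gene of 1 exon on chromosome 16 (18776847 to 18778262, plus strand, GRCm38; ENSMUSG00000041378). Its level was 17.6, 23.3 and 22.7 CPM in WT replicates 1, 2 and 3 and 34.1, 40.3 and 47.7 CPM in GFAP-IL6 replicates 1, 2 and 3. The lowest GFAP-IL6 library was thus above the highest WT library. Mean levels were 21.2 ± 3.11 and 40.7 ± 6.81 CPM (SD, n = 3 each, log2 fold change 0.93, SE 0.14, edgeR adjusted p 0.00177). Of all genes tested, 2.14% had a log2 fold change at or above that of Cldn5. It was called in all 15 alternative fits, which included other tools, scalings and filters and the omission of each library.

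F11r encodes JAM-A, an adhesion molecule of tight junctions (chromosome 1, 171437535 to 171464603, plus strand; ENSMUSG00000038235). WT replicate 1 was the lowest library, with 5.31 CPM, and the other WT libraries had 8.11 and 7.91 CPM. The GFAP-IL6 libraries had 12.6, 12.7 and 15.1 CPM, and the groups did not overlap. Mean levels were 7.11 ± 1.56 and 13.5 ± 1.39 CPM (SD, n = 3 each, log2 fold change 0.90, SE 0.17, edgeR adjusted p 0.0108). The call was lost without GFAP-IL6 replicate 3 (log2 fold change 0.82, edgeR adjusted p 0.0987). Without WT replicate 1 the log2 fold change was 0.75 (edgeR adjusted p 0.0157).

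Markers of microglia, leukocytes and blood cells were examined beside F11r, which is not made by endothelial cells alone. Of 8 microglial markers tested, 6 were called higher, among them Cx3cr1, Tmem119 and Csf1r, and no marker was at 0. Over all genes tested, 2.65% were called higher. P2ry12 had a negative estimate (log2 fold change -0.27, SE 0.14, edgeR adjusted p 0.291), with overlapping libraries. Their summed level was between 364 and 440 TPM in WT and between 665 and 752 TPM in GFAP-IL6, so the groups did not overlap. Leukocyte markers were near 0, with a summed level of 0.512 to 2.95 TPM in WT and 1.26 to 3.26 TPM in GFAP-IL6. None of these 8 markers had enough counts to be tested. The T cell gene Cd3d had 0 counts in every library. Cd3e, also a T cell gene, had 0 counts in each WT library and 3, 1 and 2 in GFAP-IL6. For blood cells and platelets the sums, mostly of haemoglobin genes, were 116 to 148 TPM in WT and 103 to 140 TPM in GFAP-IL6. The platelet gene Itga2b had 2.26, 2.15 and 1.88 CPM in WT and 2.87, 2.64 and 3.46 CPM in GFAP-IL6. Its GFAP-IL6 libraries were all above those of WT, as for 13.8% of all genes tested (log2 fold change 0.52, SE 0.24, edgeR adjusted p 0.245). The platelet genes Pf4 and Ppbp had too few counts to be tested. The part of these cells in the level of F11r was not tested.

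Esam encodes an adhesion molecule of endothelial cells and platelets (chromosome 9, 37528078 to 37538319, plus strand; ENSMUSG00000001946). Its level was 13.4, 11.3 and 11.4 CPM in WT replicates 1, 2 and 3 and 21.4, 17.8 and 18.2 CPM in GFAP-IL6 replicates 1, 2 and 3. The groups did not overlap, and replicate 1 was the highest library in each. Mean levels were 12.02 ± 1.21 and 19.1 ± 1.98 CPM (SD, n = 3 each, log2 fold change 0.69, SE 0.13, edgeR adjusted p 0.00916). Without GFAP-IL6 replicate 1 the log2 fold change was 0.59, and the adjusted p of 0.0716 was no longer past the threshold.

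Cdh5, the cadherin of endothelial adherens junctions, lies on chromosome 8 (104101625 to 104144511, plus strand; ENSMUSG00000031871). WT libraries had 11.2, 8.41 and 10.6 CPM, and GFAP-IL6 libraries had 11.5, 15.2 and 16.2 CPM. GFAP-IL6 replicate 1 was just above WT replicate 1, and the other GFAP-IL6 libraries were well above all WT libraries. Means were 10.1 ± 1.48 and 14.3 ± 2.48 CPM (SD, n = 3 each). The log2 fold change was 0.50 ± 0.16 (SE), with a 95% interval of 0.15 to 0.85, an unadjusted p of 0.00927 and an adjusted p of 0.123 by edgeR. Without the low-count filter Cdh5 was called (log2 fold change 0.50, edgeR adjusted p 0.0369).

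Ocln, which encodes occludin, had the lowest level per length of the 7 genes (chromosome 13, 100496507 to 100552718, minus strand; ENSMUSG00000021638). WT libraries had 8.01, 8.29 and 8.92 CPM, and GFAP-IL6 libraries had 10.7, 9.11 and 9.60 CPM. The groups did not overlap, but by a narrow gap, between WT replicate 3 and GFAP-IL6 replicate 2. The log2 fold change was 0.22 (SE 0.14, 95% interval -0.08 to 0.53, edgeR adjusted p 0.376). Without WT replicate 3, the highest WT library, it was 0.27 (edgeR adjusted p 0.4).

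Tjp1, the scaffold protein ZO-1, had the most counts of the 7 genes, 949 to 2194 per library (chromosome 7, 65296165 to 65527781, minus strand; ENSMUSG00000030516). Its level was 115, 111 and 138 CPM in WT and 130, 125 and 142 CPM in GFAP-IL6. WT replicate 3 was above 2 of the 3 GFAP-IL6 libraries. The log2 fold change was 0.13 (SE 0.10, 95% interval -0.08 to 0.34, edgeR adjusted p 0.48). The interval allows a level of at most 1.26 times that of WT. Without WT replicate 3 the log2 fold change was 0.23 (edgeR adjusted p 0.245).

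Jam2, which encodes JAM-B, lies on chromosome 16 (84774123 to 84825928, plus strand; ENSMUSG00000053062). Its level was 43.9, 50.5 and 61.3 CPM in WT and 54.2, 52.7 and 63.9 CPM in GFAP-IL6. The groups overlapped, with WT replicate 3 above 2 of the 3 GFAP-IL6 libraries, as for Tjp1. The log2 fold change was 0.13 (SE 0.12, 95% interval -0.13 to 0.39, edgeR adjusted p 0.562). Without WT replicate 3 it was 0.27 (edgeR adjusted p 0.245). All 7 genes are protein-coding, and 0% of the exon bases of each is shared with an exon of another gene.

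The order of the junction genes by level per length was then compared between the groups. In WT, Tjp1 had the highest mean, 47.8 ± 6.04 TPM, followed by Cldn5 with 41.5 ± 5.14 TPM (SD, n = 3 each), and the ranges of the 2 genes overlapped. In GFAP-IL6, Cldn5 was first with 83.8 ± 13.5 TPM and Tjp1 second with 54.8 ± 3.49 TPM (SD, n = 3 each), and their ranges did not overlap. The ratio of Cldn5 to Tjp1 in TPM was 0.761, 1.04 and 0.82 in WT and 1.30, 1.602 and 1.68 in GFAP-IL6. Every GFAP-IL6 library thus held more claudin-5 transcript per ZO-1 transcript than any WT library.

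Jam2 followed in WT with 24.5 ± 4.03 TPM, above Esam with 17.9 ± 2.29 TPM (SD, n = 3 each). In GFAP-IL6 the ranges of the 2 genes overlapped, with 30.0 ± 3.40 TPM for Esam and 28.3 ± 2.95 TPM for Jam2 (SD, n = 3 each). The lowest levels in WT were those of F11r (7.81 ± 1.55 TPM), Cdh5 (7.04 ± 1.22 TPM) and Ocln (5.53 ± 0.306 TPM; SD, n = 3 each), and each overlapped with its neighbour in this order. In GFAP-IL6 the same 3 genes stood apart from each other, at 15.6 ± 1.56, 10.4 ± 1.73 and 6.77 ± 0.617 TPM (SD, n = 3 each).

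**Figure D2:**
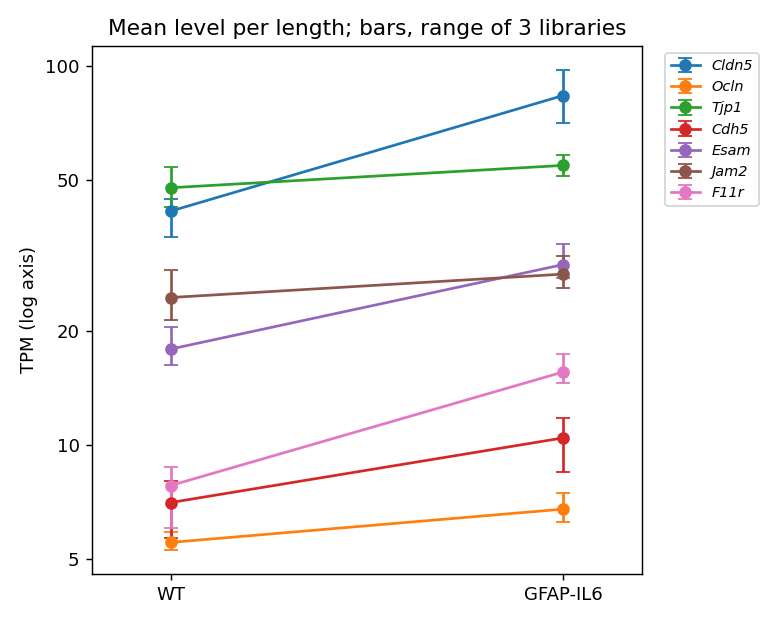
Mean level per length of each junction gene in WT and GFAP-IL6, in TPM on a log axis; bars span the lowest to the highest of 3 libraries, and lines join the means of 1 gene. Cldn5 passes Tjp1 (41.5 to 83.8 TPM against 47.8 to 54.8 TPM), and F11r moves away from Cdh5 and Ocln.

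General markers of endothelial cells, a list also drawn up with earlier results of these data known, were examined beside the junction genes. Of 18 such markers, none of them a junction gene of the list above, all 18 had counts. By edgeR, 11 were called higher, against 2.65% of all genes tested. Their summed level was 388 to 415 TPM in WT and 598 to 664 TPM in GFAP-IL6, so the groups did not overlap. The median log2 fold change of the 18 was 0.56, against 0.50 for the 7 junction genes and -0.0038 for all genes tested. Pecam1, an adhesion molecule of endothelial cells that lies at their contacts, had a mean of 16.1 ± 2.68 CPM in WT against 24.5 ± 2.49 CPM in GFAP-IL6 (SD, n = 3 each, log2 fold change 0.60, SE 0.14, edgeR adjusted p 0.0315).

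Podxl, which encodes a sialomucin of the endothelial surface, and Vwf, which encodes von Willebrand factor, had the largest changes among the markers, with log2 fold changes of 1.55 and 2.48. Flt1 (a VEGF receptor), Ly6c1, Slc2a1 (the glucose transporter of the barrier) and Adgrf5 had log2 fold changes of 0.75, 0.98, 0.70 and 0.56. Adjusted p values by edgeR over these 6 markers ranged from 3.8e-06 to 0.00463. Emcn, Kdr, Icam2 and Cd34 had log2 fold changes of 0.06 to 0.18 and were not called. For the cells that wrap the vessels, pericytes and smooth muscle, 1 of 10 markers was called higher (Rgs5), against 2.65% of all genes tested. The summed level of these 10 was 175 to 221 TPM in WT and 247 to 280 TPM in GFAP-IL6.

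To see which junction genes kept pace with these markers, the log2 CPM of each was taken relative to the mean log2 CPM of the 18 markers in the same library. No test was made of these values. The mean of the 18 includes Vwf and Podxl, with log2 fold changes of 2.48 and 1.55 against a median of 0.56. Values without these markers were not computed, so the differences may depend on the choice of markers. Esam differed between the groups by 0.01, with -0.61 ± 0.15 for WT against -0.60 ± 0.18 for GFAP-IL6 (SD, n = 3 each, log2). Cdh5 differed by -0.16, Cldn5 by 0.28 and F11r by 0.27, and the libraries of the 2 groups overlapped for all of these 4 genes. These differences depended on single libraries. Without WT replicate 1 that of F11r was 0.07 and that of Cldn5 0.14, and without GFAP-IL6 replicate 1 that of Cdh5 was -0.03. For Esam the difference ran from -0.09 to 0.08 with 1 library left out, so it had no stable sign.

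For Ocln, Tjp1 and Jam2, whose own fold changes were small while the markers rose, the value relative to the markers was lower in every GFAP-IL6 library than in any WT library. This follows from those fold changes and is no separate evidence. For Tjp1 the values were 2.62, 2.69 and 2.83 in WT and 2.19, 2.15 and 2.21 in GFAP-IL6, a difference of -0.53 on the log2 scale. The difference was -0.52 for Jam2 and -0.44 for Ocln. With 1 library left out it ran from -0.57 to -0.47 for Tjp1, from -0.64 to -0.43 for Jam2 and from -0.52 to -0.39 for Ocln. With Pecam1 alone as the reference, the differences were -0.48 for Tjp1, -0.47 for Jam2 and -0.39 for Ocln, but the libraries of the 2 groups then overlapped for Ocln. The levels of Ocln, Tjp1 and Jam2 themselves were not called lower. Per length, WT means were 47.8 TPM for Tjp1, 24.5 TPM for Jam2 and 5.53 TPM for Ocln. Those of Cldn5, Pecam1 and Cdh5 were 41.5, 10.8 and 7.04 TPM. How much of the RNA of each gene came from endothelial cells was not tested.

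**Figure D3:**
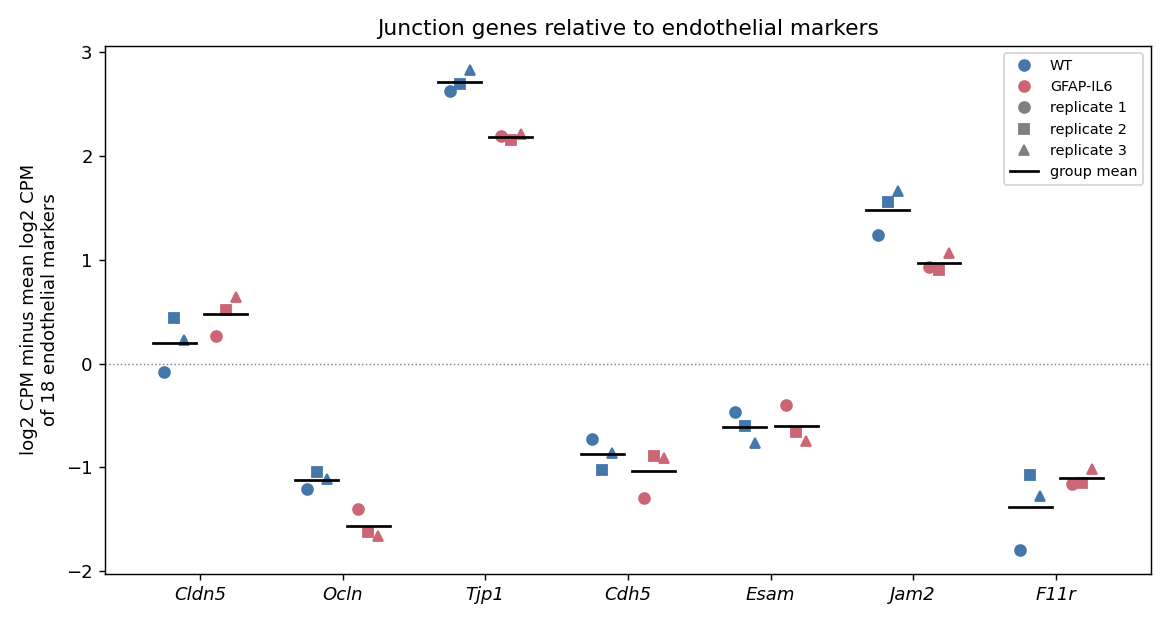
Log2 CPM of each junction gene minus the mean log2 CPM of 18 endothelial markers in the same library, for WT (blue) and GFAP-IL6 (red), with marker shape giving the replicate and lines the group means. The GFAP-IL6 libraries lie below the WT libraries for Ocln, Tjp1 and Jam2, by 0.44 to 0.53 on average, and overlap with them for the other 4 genes.

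Partners of the junction were taken from lists of general knowledge, drawn up with earlier results of these data known. Of 17 other tight junction genes, 14 were tested, 1 was called higher and 0 lower by edgeR, with a median log2 fold change of 0.04. In the whole fit of 15341 genes, 2.65% were called higher and 32 genes lower. No library held over 7 counts of Cldn3, Tjp3 or Marveld3, which were left out of the test. By edgeR, DESeq2 or limma-voom alike, 3 of these genes had an unadjusted p under 0.05 as higher and 0 as lower. Among all 15341 genes tested by edgeR, 3139 had an unadjusted p under 0.05 in either direction. The gene called was Lsr, which encodes angulin-1, a protein of the points where 3 cells meet. Lsr had 5.14, 4.41 and 5.15 CPM in WT and 10.3, 11.2 and 13.8 CPM in GFAP-IL6 (log2 fold change 1.27, SE 0.17, edgeR adjusted p 0.0008). Antisense genes share 44.7% of its exon bases, and whether the counting used strand is unstated, so reads of these genes cannot be separated from those of Lsr.

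Cldn12, a claudin of many cell types, had a mean of 49.8 ± 2.78 CPM in WT against 49.3 ± 0.922 CPM in GFAP-IL6 (SD, n = 3 each). The log2 fold change of Cldn12 was -0.02 (SE 0.08, edgeR adjusted p 0.918). Cgnl1, which encodes the junction protein paracingulin, had a log2 fold change of 0.37 and Mpdz, a scaffold protein, one of 0.27, with adjusted p values of 0.133 and 0.139. Cldn1 had 1.05, 1.49 and 2.32 CPM in WT and 0.924 to 1.005 CPM in GFAP-IL6 (log2 fold change -0.76, SE 0.36, edgeR adjusted p 0.26). Its highest level was in WT replicate 3, the library with the most choroid plexus transcript, and the part of that tissue was not tested.

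Of 12 genes of adherens junctions, all were tested, 1 was called higher and 0 lower by edgeR, with a median log2 fold change of 0.06. None had an unadjusted p under 0.05 as lower by edgeR, DESeq2 or limma-voom. In the whole edgeR fit of 15341 genes, 2.65% were called higher and 32 genes lower. An unadjusted p under 0.05 in either direction was found there for 3139. The gene called was Ptprb, the phosphatase VE-PTP that acts on VE-cadherin and its partners. Ptprb had 43.1, 34.4 and 49.5 CPM in WT and 58.5, 56.8 and 66.0 CPM in GFAP-IL6 (log2 fold change 0.52, SE 0.12, edgeR adjusted p 0.0403). This call was lost without any 1 of the GFAP-IL6 libraries and with an offset for gene length. The catenin genes Ctnnb1, Ctnna1 and Ctnnd1, which are used by cadherins of every cell type, had log2 fold changes of -0.07, 0.06 and 0.14 and were not called.

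Of 20 genes known to control endothelial junctions, identity or permeability, a list that also holds the vesicle transport genes Plvap, Cav1 and Mfsd2a, all were tested, 4 were called higher and 0 lower by edgeR, with a median log2 fold change of 0.29. None had an unadjusted p under 0.05 as lower by edgeR, DESeq2 or limma-voom. In the whole edgeR fit of 15341 genes, 2.65% were called higher and 32 genes lower. An unadjusted p under 0.05 in either direction was found there for 3139. Heg1, a receptor that stabilises junctions through the CCM complex, had 34.4, 30.2 and 33.8 CPM in WT and 49.1, 48.1 and 52.5 CPM in GFAP-IL6 (log2 fold change 0.61, SE 0.09, edgeR adjusted p 0.0016). The groups did not overlap. Antisense Gm15657 shares 2.5% of the exon bases of Heg1. Lrp5 (a Wnt co-receptor), Apcdd1 (a Wnt antagonist of barrier endothelium) and Sox18 (an endothelial transcription factor) had log2 fold changes of 0.90, 0.51 and 1.01 and adjusted p values of 0.0147, 0.0168 and 0.0417. Only Heg1 of the 4 was called without GFAP-IL6 replicate 3, and only Heg1 and Lrp5 without GFAP-IL6 replicate 2 or WT replicate 3.

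**Figure D4:**
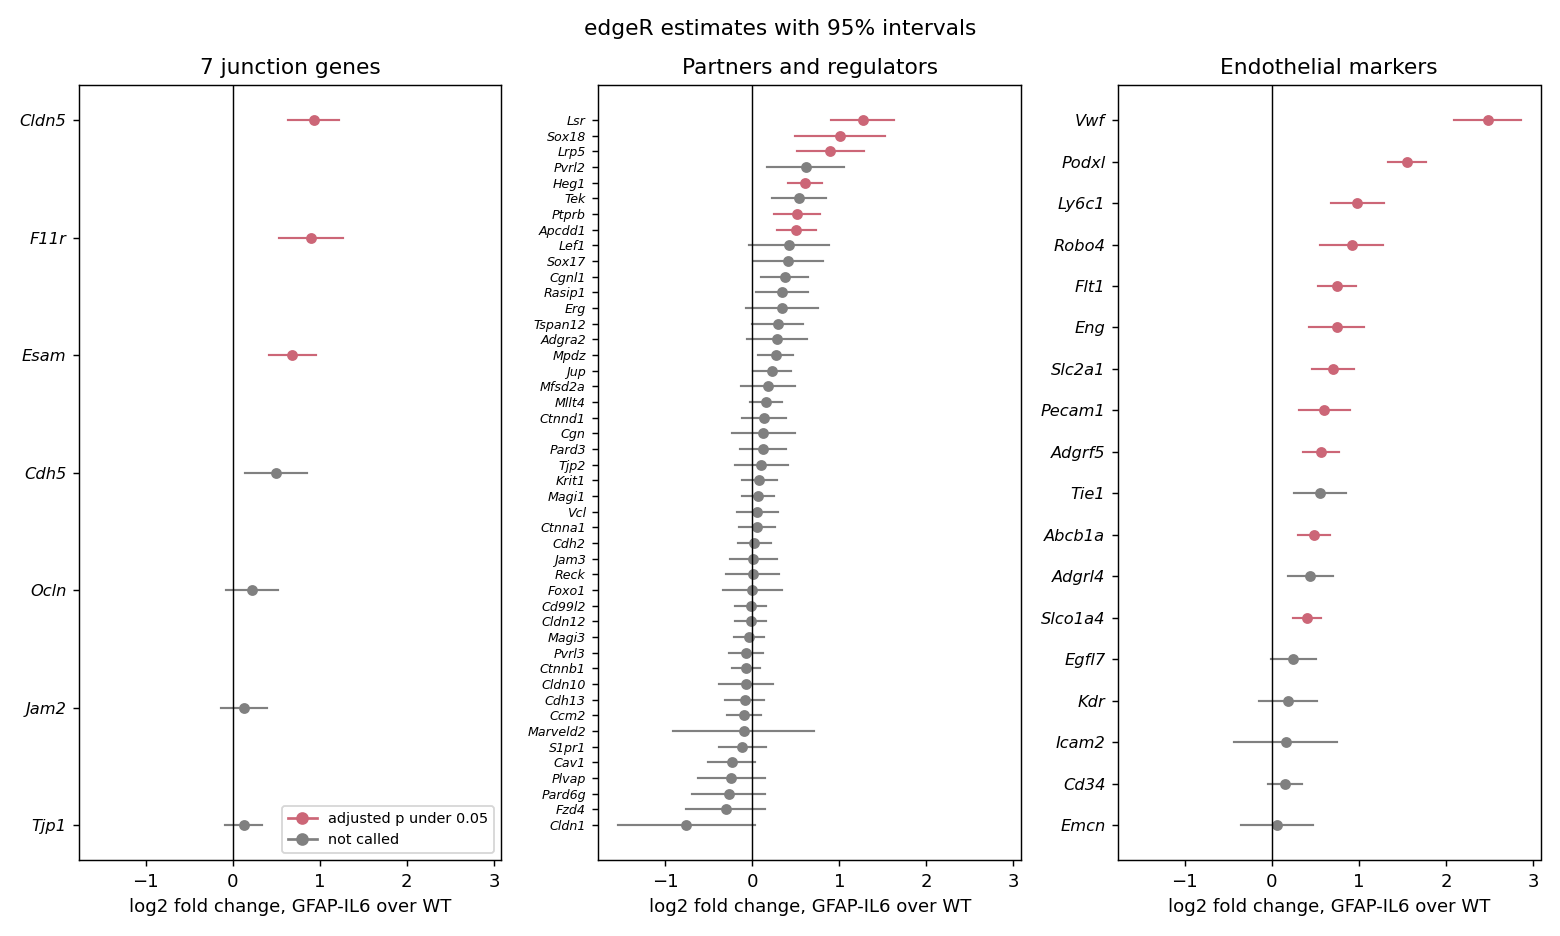
Log2 fold change of GFAP-IL6 over WT by edgeR with 95% intervals for the 7 junction genes (left), 46 tested partners and regulators of junctions (middle) and 18 endothelial markers (right); red marks an adjusted p under 0.05. Of these, 3, 6 and 11 genes are red, and all of them lie to the right of 0. Over all genes tested, 2.86% were called in either direction.

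Markers of other cell types were counted in the same fit. Among 8 markers each, 0 were called by edgeR for astrocytes, neurons, oligodendrocytes and meningeal fibroblasts, while 2, 3, 0 and 1 had an unadjusted p under 0.05. Among all 15341 genes tested, 3139 were at that level in either direction. Of the 2 astrocyte markers 1 was higher and 1 lower in GFAP-IL6, and the 3 neuronal markers and the meningeal marker were lower. Gfap, itself an astrocyte gene, is not in the astrocyte list and was called higher (log2 fold change 2.84, edgeR adjusted p 5.5e-06). Estimates were negative for 7 of 8 neuronal and 8 of 8 oligodendrocyte markers. DESeq2 called 1 astrocyte marker and none of the others, and limma-voom called none of them. Summed levels overlapped between the groups for these 4 lists. For choroid plexus, 5 of 8 markers were tested and 0 called by edgeR, with 3 lower at an unadjusted p under 0.05, and for blood cells and platelets 6 were tested, with 0 called and 0 at that level. DESeq2 and limma-voom called none in either list.

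The junction genes were also compared with each other by how their levels varied over the 6 libraries. Each gene was centred on its mean log2 CPM, and likeness was the root mean square difference between 2 genes, on the log2 scale. This is a description, since the libraries fall into 2 groups. Jam2 and Tjp1 were the most alike of the 21 pairs, at 0.0878, followed by Cldn5 and F11r at 0.103 and Ocln and Tjp1 at 0.109. The least alike were Tjp1 and F11r, at 0.445. The ratio of Cldn5 to F11r in TPM had a mean of 5.37 ± 0.458 for WT against 5.36 ± 0.489 for GFAP-IL6 (SD, n = 3 each), and the libraries overlapped.

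Among all genes tested, those nearest to Cldn5 were Cpt1b (0.069), Tlr4 (0.0718) and Ctla2a (0.0881). Those nearest to F11r were Clec2d (0.0682), Fcrls (0.0737) and Ptpn6 (0.0874). For Cdh5 they were Stk36 (0.0402), 2310003H01Rik (0.0483) and Nfatc1 (0.05), and for Esam Fignl2 (0.0444), Gm25082 (0.0707) and Gm27206 (0.079). Ocln was nearest to E130102H24Rik (0.0265), Lig3 (0.0301) and Cog5 (0.0419). Tjp1 was nearest to Usp54 (0.0267), Hook3 (0.0271) and Fads2 (0.0339), and Jam2 to Slc12a4 (0.032), Gm16984 (0.0356) and Trp53inp2 (0.0369). Of all these neighbours, only Ctla2a, Clec2d, Fcrls and Ptpn6 were called by edgeR. Cpt1b, Tlr4 and Fignl2 had low WT means, of 1.36, 1.62 and 1.01 CPM. With 6 libraries and 15341 genes, near matches need not reflect a shared function, which was not tested.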

How the data were processed

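The authors deposited raw gene counts of the 6 libraries in 1 table. As described in the study, STAR (version 2.4 per the submitters’ processing notes) aligned the reads to mm10 and featureCounts assigned them to GENCODE genes. The processing notes list only the human build hg19, but all 33000 identifiers in the table are mouse Ensembl genes. The strand setting was not stated. The gene length in bases given in the table was used for TPM.

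The quasi-likelihood F-test of edgeR 4.0.16 was run on the counts in R 4.3.3, with TMM scaling, filterByExpr and Benjamini-Hochberg adjustment over 15341 genes, and a gene was called at an adjusted p under 0.05. DESeq2 1.42.0, limma-voom (limma 3.58.1), other scalings and filters, thinning to the smallest library, an offset for gene length, a replicate block and the omission of each library were run as alternatives. Standard errors and 95% intervals were derived from the F statistic. The edgeR, DESeq2, limma-voom, block and offset fits were tested on simulated counts. Levels are TMM-scaled CPM, and log2 CPM used a prior count of 1. TPM was computed over all genes of the table, without TMM scaling. Counts carry no molecular identifiers. The counts of no pair of libraries matched within sampling noise (chi-square per degree of freedom of 2.23 to 20.1 over 15 pairs).

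The junction genes and all gene lists were chosen with earlier results of these data known. Named beside the junction genes are Il6 and Gfap, the called genes of each list (for endothelial markers the 6 with the smallest adjusted p) and the 3 genes nearest to each junction gene. Some called microglial markers are not reported here by name. Other genes named were chosen after their values were seen. Positions are from GENCODE release M21 on GRCm38, the same assembly as mm10, with 32593 identifiers matched without their version. Protein sequences were not used here.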

Additional observations from a re-analysis of the deposited data

How the results depend on the processing

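All 7 junction genes had a positive log2 fold change in all 15 alternatives, and none was called lower in any. Cldn5 was called in all 15 alternatives, Esam and F11r in 14 each and Cdh5 in 1. Omitting 1 library at a time gave log2 fold changes of 0.80 to 1.05 for Cldn5, 0.59 to 0.77 for Esam, 0.75 to 0.996 for F11r and 0.38 to 0.65 for Cdh5, with adjusted p values by edgeR of 0.000349 to 0.0198, 0.00694 to 0.0716, 0.00318 to 0.0987 and 0.0652 to 0.411. The ranges were 0.15 to 0.27 for Ocln, 0.06 to 0.23 for Tjp1 and 0.03 to 0.27 for Jam2. The number of junction genes called was 2 to 3 in these fits. Without the low-count filter Cdh5 was called, at 0.50 (edgeR adjusted p 0.0369), and 1154 genes were called in all, in place of 439. Cldn5 was above a log2 fold change of 1 after thinning (1.005), with the offset for gene length (1.02) and without GFAP-IL6 replicate 1 (1.05). Omitting 1 library gave 187 genes (GFAP-IL6 replicate 3) to 1061 genes (WT replicate 1) in all, 0 to 1 adherens junction genes and 1 to 4 regulators. Of the 18 endothelial markers, 8 to 12 were called with 1 library omitted. With the offset for gene length, 0 adherens junction genes were called. The causes of these changes were not tested.

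With a replicate block, 750 genes were called, and the calls among the junction genes did not change (adjusted p by edgeR of 0.000164 for Cldn5, 0.00562 for F11r, 0.00565 for Esam and 0.0952 for Cdh5). Deviations of libraries with the same number correlated by 0.0949, 0.0132 and 0.0167 across genes, so the numbers were not taken as pairs, and 4 of 6 libraries correlated best with their own number. F11r and Ocln had the fewest counts of the junction genes, 61 to 142 per library.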

Other observations

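Of the 20 regulators counted in the report, Plvap, Cav1 and Mfsd2a are known for transport across endothelial cells. Plvap, which encodes a protein of fenestrated and leaky vessels, had 6.92 ± 0.725 CPM in WT and 5.89 ± 0.864 CPM in GFAP-IL6 (SD, n = 3 each, log2 fold change -0.24, SE 0.18, edgeR adjusted p 0.455). Cav1, which encodes caveolin-1 of caveolar vesicles, had 14.3 ± 1.38 and 12.1 ± 0.676 CPM (SD, n = 3 each). Each GFAP-IL6 library had less Cav1 than each WT library, as for 12.7% of all genes tested. The log2 fold change of Cav1, -0.24 ± 0.12 (SE), had an adjusted p of 0.302 by edgeR. Mfsd2a, a lipid transporter that restrains vesicle transport at the barrier, had 19.0 ± 1.83 and 21.8 ± 4.44 CPM (SD, n = 3 each), with overlapping libraries, a log2 fold change of 0.18 ± 0.14 (SE) and an adjusted p of 0.501. None of the 3 differences passed the test.

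Among regulators of junctions, the endothelial transcription factors Erg and Sox17 did not pass the test. Erg had a log2 fold change of 0.34 ± 0.19 (SE) and Sox17 one of 0.41 ± 0.18 (SE), with adjusted p values of 0.329 and 0.227 by edgeR. For both, the lowest GFAP-IL6 library exceeded the highest WT library, as for 13.8% of all genes tested. Tek, the receptor of angiopoietins, had a log2 fold change of 0.54 ± 0.14 (SE) (edgeR adjusted p 0.07) and was called without the low-count filter and with the replicate block.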
